A study of Mus musculus with 3 samples.

Results

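Lhx1, Pax8, Pou3f3, Hnf4a, Irx1, Irx3 and Emx1 are transcription factor genes that pattern the forming nephron, the filtering and reabsorbing unit of the kidney. They were taken as a named set of 7 and matched by symbol to oligos for which the platform annotation gives exactly 1 gene symbol, and oligos of the same symbol were averaged. All 7 were found, on 8 oligos (Hnf4a had 2 and each of the others 1), each oligo had a value on every array, and 0 were missing among 19635 genes tested. The study set RNA of kidney at 13.5 days post coitum (dpc) against RNA of metanephric mesenchyme at 10.5 dpc on 3 2-colour arrays, with both RNAs on the same array. Both tissues were microdissected from normal CD1 mouse embryos, males and females pooled; amplified RNA was labelled. No allele, transgene or agent is named, and nothing says that the 3 arrays came from separate dissections, so p-values and intervals reflect how far these arrays differ, and that spread may be technical.

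Nephrons arise when cells of the metanephric mesenchyme condense beside the ureteric bud, become an epithelial vesicle and pass through comma-shaped and S-shaped stages. Lhx1 and Pax8 act at the vesicle, Pou3f3 (also called Brn1), Irx1 and Irx3 mark the middle and distal part that gives the loop of Henle and distal tubule, and Hnf4a drives the proximal tubule. Lhx1 and Pax8 are also active earlier, in the nephric duct. Most of these factors are used outside the kidney as well: Pou3f3, Emx1, Irx1, Irx3 and Lhx1 in the nervous system and Hnf4a in liver and gut.

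Each value below is a log2 ratio of the channels as deposited, so 1 is a 2-fold difference. The labels do not say which tissue is the numerator, so no side is assigned to the kidney; a value and its mirror image with the opposite sign describe the same size of difference. The ratios come from whole tissue, so fewer cells of a type and less RNA per cell cannot be told apart.

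As a group the 7 factors had no common direction. In limma's fit across all genes none passed (adjusted p, by Benjamini-Hochberg, from 0.539 for Pax8 to 0.949 for Lhx1), where 1 of 19635 genes did, or 0.00509%. That gene, named after its value was seen, was Slc2a1, a glucose transporter at the lowest deposited ratio on all 3 arrays. At an unadjusted p under 0.05 there were 0 of 7 factors, beside 16.8% of all genes. The mean was positive for 4 factors and negative for 3, beside 9867 and 9768 of 19635 genes. The median of the 7 means was 0.059, beside 0.0020 over all genes. None had a mean of at least 1 in size, which 5.33% of all genes had. The same sign on all 3 arrays was held by 2 of the 7, Irx1 and Irx3, beside 41.3% of all genes, and the arrays disagreed in sign for the other 5.

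**Figure D1:**
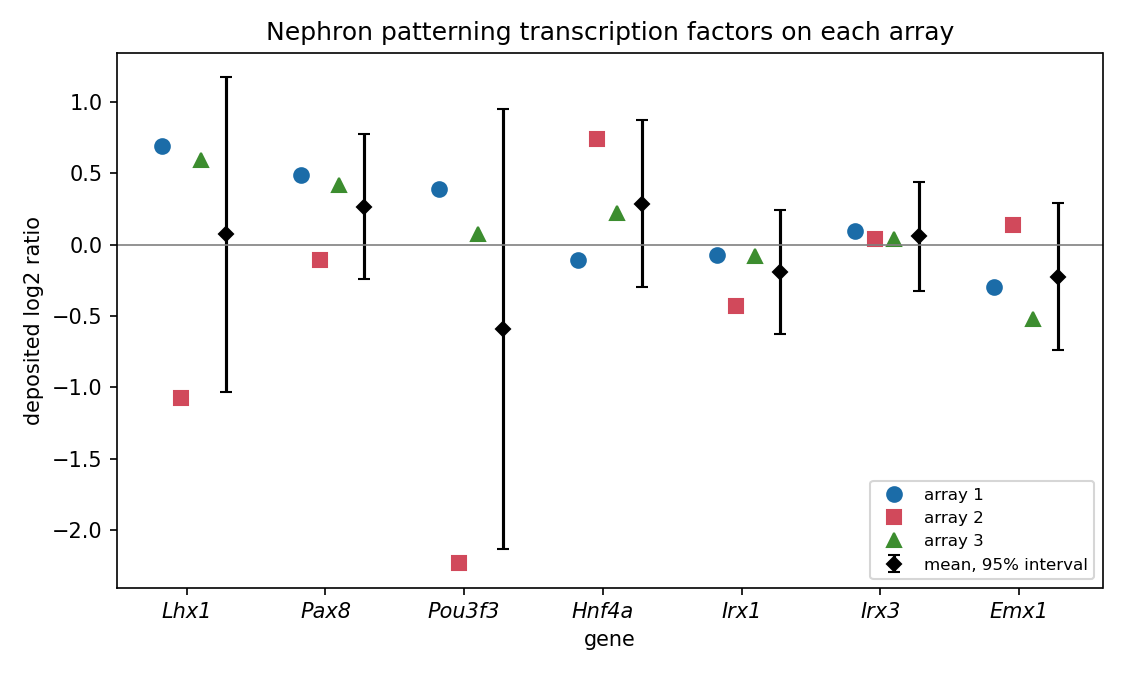
The deposited log2 ratio of each factor (vertical axis) is shown for arrays 1, 2 and 3 (coloured points), with the mean of the 3 arrays and its 95% interval from limma (black). Array 2 lies below 0 for Lhx1 and Pou3f3, at -1.07 and -2.23, while arrays 1 and 3 lie above 0; the points of Irx3 almost coincide.

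The 3 arrays differed in how well they matched over all genes. The correlation across 19635 genes, which are not independent replicates, was 0.46 between arrays 1 and 2, 0.17 between arrays 1 and 3 and 0.16 between arrays 2 and 3. Values were present for between 21433 and 21477 of 21819 library oligos, and the number of arrays limits the precision. Both genes named next had large ratios that ran the same way on every array. Wnt4, the signal that turns mesenchyme into nephron epithelium, stood at 1.76, 1.78 and 1.99 on arrays 1, 2 and 3, and the embryonic globin Hbb-bh1 at -3.88, -3.66 and -4.30. The other globins among the red-cell markers, named after their values were seen, lay near 0. Their means were -0.21 for Hba-x, -0.084 for Hba-a1 and -0.062 for Hbb-y. Of the mesenchyme and progenitor markers 7 of 12 had a positive mean (median 0.16). All 10 red-cell markers had a negative one (median -0.59), as did 10 of 11 muscle markers (median -0.56) and 5 of 9 endothelial markers (median -0.011). Of all 19635 genes, 9867 had a positive mean and 9768 a negative one. At an unadjusted p under 0.05 in limma's fit, 5 of the 12 mesenchyme markers were positive and 1 was negative. On the negative side were 5 of the 10 red-cell, 7 of the 11 muscle and 1 of the 9 endothelial markers, with 0 positive. The shares of all genes were 8.99% positive and 7.83% negative, and 0 of these markers passed over all genes.

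Lhx1 encodes a LIM-homeodomain factor required in the nephric duct and in the renal vesicle. It had 0.69 on array 1, -1.07 on array 2 and 0.60 on array 3. Arrays 1 and 3 thus gave 1.61-fold and 1.51-fold differences on one side and array 2 a 2.10-fold difference on the other. The mean was 0.071 ± 0.99 (SD, n = 3 arrays), with a 95% interval from -1.03 to 1.17, so a 2-fold difference in either direction lies within the error. Its SD was higher than that of 91.3% of all genes or equal to it. Without array 2 the mean was 0.64, without array 1 it was -0.24 and without array 3 it was -0.19, so the sign of the mean rests on which arrays are kept. It was also negative after scale or quantile normalization between arrays (-0.0093 and -0.0087) and with array weights (-0.19).

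Lhx1 protein works with cofactors, some of which bind its LIM domains. The 7 cofactor genes counted here as partners include a competitor, Lmo4. Of 7 partner genes, 1 had an unadjusted p under 0.05 on the positive side (8.99% of all genes did) and 1 on the negative side (7.83% of all genes), and 0 passed over all genes. The positive one was Ldb2, a LIM-domain-binding scaffold, with 0.76, 0.55 and 0.43 on arrays 1, 2 and 3 and a mean of 0.58 ± 0.17 (limma adjusted p = 0.207). The negative one was Lmo4, a LIM-only protein that competes for the same scaffold, with -0.50, -0.42 and -0.34 and a mean of -0.42 ± 0.079 (limma adjusted p = 0.274). Both kept the same sign on all arrays. The signs of Lhx1, positive on arrays 1 and 3 and negative on array 2, were shown by 0 of the 7 partners. Of all genes 7.26% showed them, so 0 of 7 is near that share.

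Pax8, a paired-box factor that acts with Pax2 in the nephric lineage, had 0.49 on array 1, -0.11 on array 2 and 0.42 on array 3. Array 2 was again the low one, though by less. Its mean was 0.27 ± 0.32, with a 95% interval from -0.24 to 0.78, which leaves out a 2-fold difference on either side. Pax2, its partner, had 0.16, 0.64 and 0.084 and a mean of 0.29 ± 0.30, with array 2 as the highest array. On arrays 1 and 3 Pax8 lay above Pax2 by 0.33 and 0.33, and on array 2 it lay 0.75 below (difference of log2 ratios -0.75).

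Pou3f3, a class III POU factor needed for the loop of Henle and distal tubule, had 0.39, -2.23 and 0.076 on arrays 1, 2 and 3. Its value on array 2 is a 4.69-fold difference, whereas arrays 1 and 3 gave 1.31-fold and 1.05-fold on the opposite side. The mean was -0.59 ± 1.43, with a 95% interval from -2.13 to 0.95. Without array 2 the mean turned to 0.23, so the negative mean rests on that array. Its SD was at least that of 96.8% of all genes.

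The other class III POU genes, best known from the nervous system, did not share 1 pattern with Pou3f3. Pou3f1 had 0.091, -0.49 and 0.084 on arrays 1, 2 and 3, with array 2 alone negative. In Pou3f2, the closest relative, array 3 was the low one, with 0.047, -0.12 and -1.95. Pou3f4 had 0.40, 0.22 and -0.089. In all 4 genes of the class the arrays differed in sign, where 41.3% of all genes had 1 sign. Of the 4, 0 had an unadjusted p under 0.05, beside 16.8% of all genes.

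Lhx1, Pax8 and Pou3f3 thus had the same order of signs, positive on arrays 1 and 3 and negative on array 2. That order was seen in 3 of the 7 factors and in 7.26% of all genes; it was noticed in the values, so it is a description. Array 2 lay below the mean of arrays 1 and 3 by a log2 gap of -2.46 for Pou3f3, and 133 of 19635 genes had a lower gap. For Lhx1 the gap was -1.71, with 291 genes lower, and for Pax8 it was -0.56, with 2457 genes lower. Emx1 and Hnf4a went the other way, with gaps of 0.55 and 0.68.

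**Figure D2:**
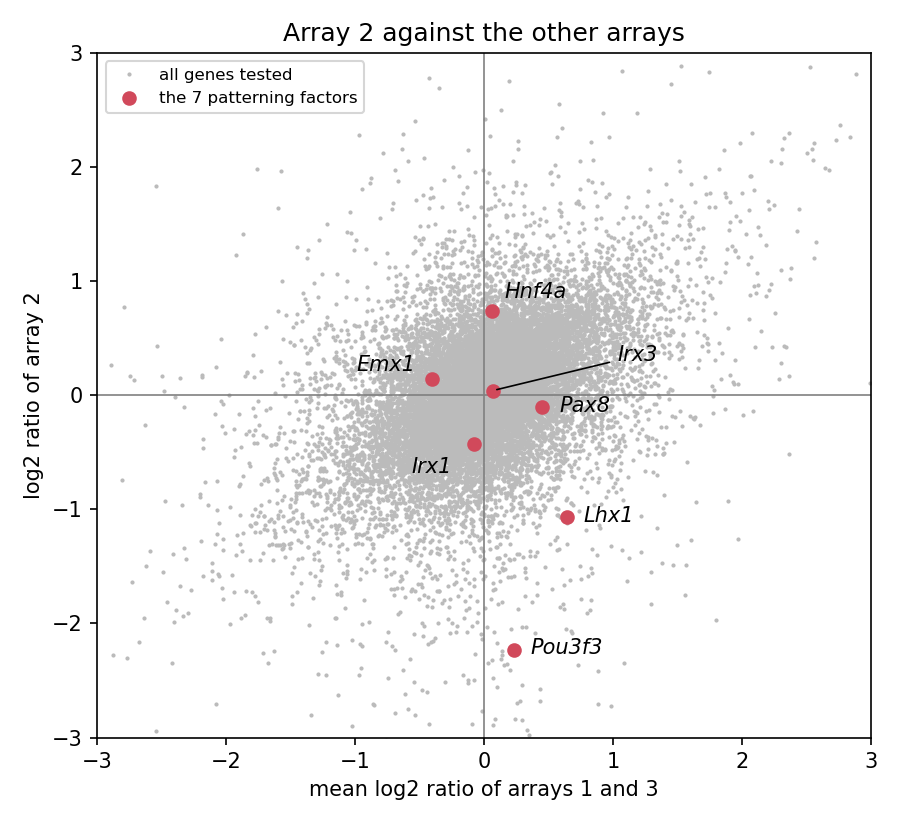
Each point is a gene, placed by the mean log2 ratio of arrays 1 and 3 (horizontal) and the log2 ratio of array 2 (vertical), with the 7 factors in red; 118 genes lie outside the axes, which end at 3. Pou3f3 and Lhx1 lie at the lower right edge of the cloud, at -2.23 and -1.07 on array 2, and Irx3 and Pax8 lie closer to its centre.

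Agreement in sign was also counted for each pair of arrays. Arrays 1 and 3 gave the same sign for 6 of the 7 factors, beside 57.2% of all genes, with Hnf4a as the exception. Arrays 1 and 2 agreed for 2 of the 7, beside 69.8% of all genes, although those arrays had the highest correlation over all genes. Arrays 2 and 3 agreed for 3 of the 7, beside 55.7% of all genes. Whether these shares differ from the background was not tested.

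Hnf4a, the nuclear receptor that drives proximal tubule differentiation, was the only factor measured by more than 1 oligo. Its 2 oligos averaged -0.11, 0.74 and 0.22 on arrays 1, 2 and 3, with a mean of 0.29 ± 0.43 and a 95% interval from -0.30 to 0.87. Array 2 was the highest array here, and array 1 lay on the other side of 0. The oligo annotated to NM_008261 had -0.39, 1.04 and 0.52, and the oligo annotated to AF015275 had 0.18, 0.43 and -0.074. Both oligos were positive on array 2 and opposite in sign on arrays 1 and 3. They differed by 0.58, 0.61 and 0.60 on arrays 1, 2 and 3, and the median difference over 863 genes with 2 oligos was 0.60, 0.46 and 0.57. The mean without array 2 was 0.060, against 0.48 without array 1 and 0.32 without array 3.

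Hnf4g, the other gene of the Hnf4 pair, had -0.67, 0.23 and -0.78 and a mean of -0.41 ± 0.55. Hnf4a lay above Hnf4g on all 3 arrays, by 0.57, 0.51 and 1.01, a mean difference of 0.70 ± 0.27 (log2). With 3 arrays the smallest two-sided p of an exact sign-flip test is 0.25, and this difference gave that p.

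Of 14 proximal tubule genes tested, 11 had a positive mean and 3 a negative one, beside 9867 and 9768 of 19635 genes. The median of the 14 was 0.26, and 0 of them passed over all genes. The unadjusted p was under 0.05 for 2 positive genes and 1 negative gene, beside 8.99% and 7.83% of all genes. The negative one was Cubn, the endocytic receptor cubilin, with -2.04, -1.23 and -1.21 on arrays 1, 2 and 3 and a mean of -1.49 ± 0.47 (limma adjusted p = 0.112). Among the positive ones was Pck1, a gluconeogenic enzyme of proximal tubule and liver, with 1.00, 0.89 and 0.091 and a mean of 0.66 ± 0.50 (limma adjusted p = 0.290). Arrays 1 and 2 carried that mean.

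Irx1 and Irx3 are Iroquois homeobox genes of the intermediate nephron segment, and they had the most even values among the 7. Irx3 had 0.098, 0.041 and 0.038 on arrays 1, 2 and 3, a mean of 0.059 ± 0.033, and its 95% interval ran from -0.32 to 0.44. All 3 arrays lay within 1.07-fold of equality, and 1.09% of all genes had an SD as low or lower. Irx1 had -0.071, -0.43 and -0.082, a mean of -0.19 ± 0.20 and an interval from -0.63 to 0.24. Array 2 was the lowest array for Irx1 as well. Neither interval reached a 2-fold difference on either side, and across the 7 factors 5 did not, the exceptions being Lhx1 and Pou3f3. The share of all genes with such an interval was not counted, so 5 of 7 is a description only.

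The Iroquois genes lie in the mouse genome in a pair of clusters, Irx1 with Irx2 and Irx4, and Irx3 with Irx5 and Irx6, and a neighbour of each was set beside it. Irx5, beside Irx3, had -2.0, -1.12 and -1.53, a mean of -1.55 ± 0.44 (limma unadjusted p = 0.00155, adjusted p = 0.109). Irx3 lay above Irx5 on all 3 arrays, by 2.10, 1.16 and 1.57, a mean difference of 1.61 ± 0.47. Irx2, beside Irx1, had 0.22, 1.16 and 1.40, a mean of 0.92 ± 0.63 (limma unadjusted p = 0.0265, adjusted p = 0.236). Irx1 lay below Irx2 on all 3 arrays, with differences of -0.29, -1.58 and -1.48. Each of these comparisons gave the smallest two-sided p that an exact sign-flip test on 3 arrays allows, 0.25 (0.583 when adjusted over the 7 pairs compared).

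Irx6 had 0.17, 0.67 and 0.54, a mean of 0.46 ± 0.26 with all arrays positive, and Irx4, best known from the heart ventricle, had 0.17, 0.28 and -0.13. Of the 6 Iroquois genes 5 had 1 sign on all arrays, beside 41.3% of all genes, the exception being Irx4. Of the 4 that are not among the 7 factors, 1 had an unadjusted p under 0.05 on each side. The shares of all genes were 8.99% positive and 7.83% negative.

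Emx1 is a homeobox gene known mainly from the cerebral cortex and also described in the distal nephron of zebrafish. It had -0.30 on array 1, 0.14 on array 2 and -0.52 on array 3, so array 2 alone was positive. The mean was -0.23 ± 0.33, with a 95% interval from -0.74 to 0.29. Without array 3 it was -0.078 and without array 2 it was -0.41. Emx2, which is required for the ureteric bud and kidney to form, had -0.24, -0.023 and -0.19, a mean of -0.15 ± 0.11 with all arrays negative. Their difference changed sign between arrays, at -0.056, 0.16 and -0.32.

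**Figure D3:**
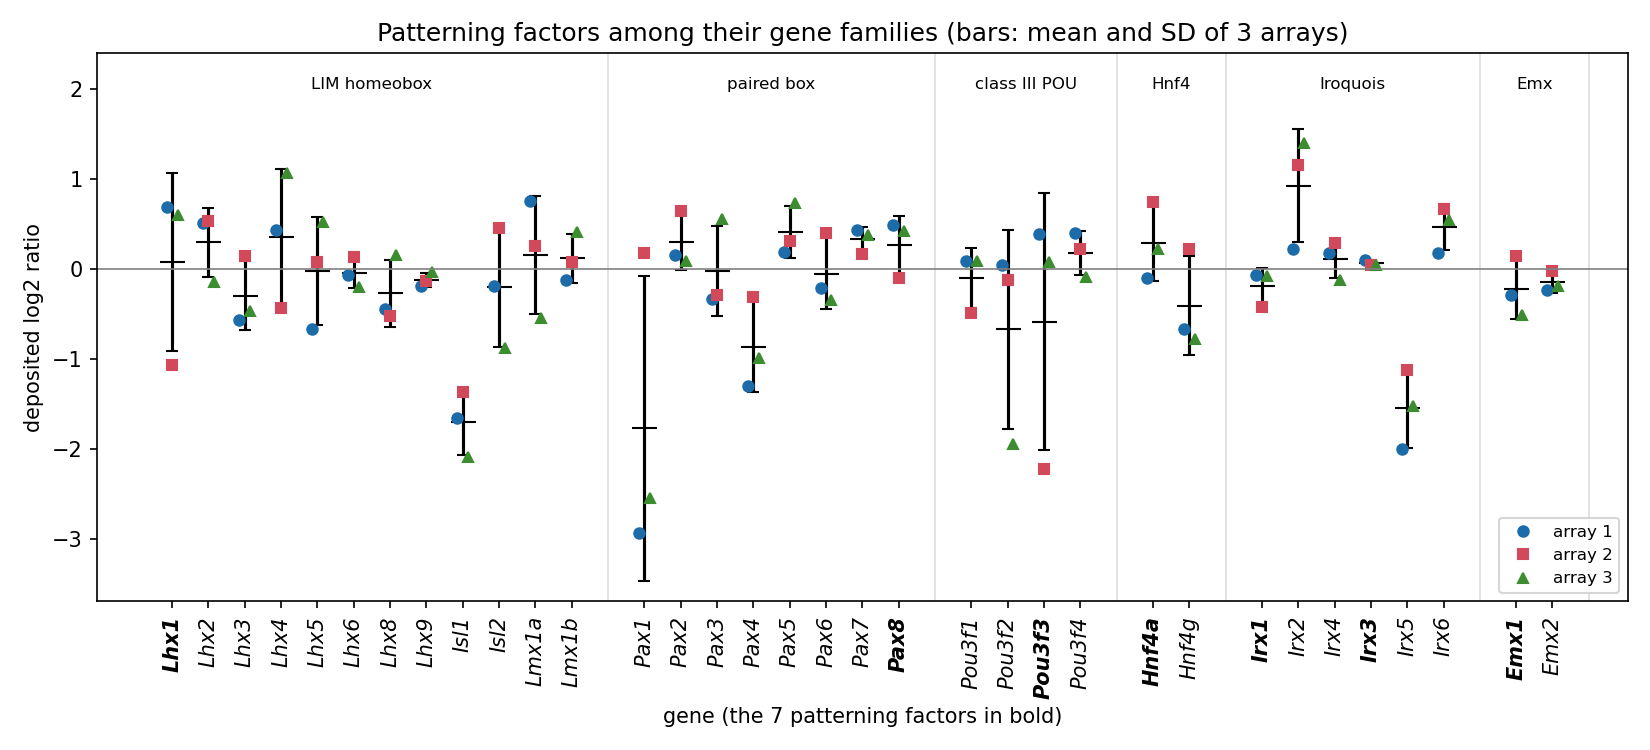
Deposited log2 ratios (vertical axis) of the 7 factors, in bold, and of their family relatives on arrays 1, 2 and 3 (coloured points), with the mean and SD of the 3 arrays (black). Isl1 and Irx5 lie below -1 on all 3 arrays, at means of -1.71 and -1.55, whereas each of the 7 factors has a mean between -0.59 and 0.29.

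With the relatives and cluster neighbours above included, 27 of 28 other genes of these families were tested, and Pax9 was not analysed here. At an unadjusted p under 0.05, 1 was on the positive side (Irx2) and 3 on the negative side (Isl1, Irx5 and Pax4). The shares of all genes were 8.99% and 7.83%. Irx2 and Irx5 are those described above. Of these relatives 0 passed the test over all genes, and their median was -0.046. Isl1, a LIM-homeodomain factor of motor and sensory neurons, had -1.66, -1.37 and -2.10, a mean of -1.71 ± 0.37 (limma adjusted p = 0.107). Lhx5, the closest relative of Lhx1, had -0.67, 0.076 and 0.52. Its difference from Lhx1 changed sign between arrays, at 1.36, -1.15 and 0.080. Of the 7 pairs of a factor and its relative, 3 differed in the same direction on all arrays: Hnf4a and Hnf4g, Irx1 and Irx2, and Irx3 and Irx5.

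Other genes of the early nephron and of the distal segments were counted in the same way, beside 8.99% of all genes with an unadjusted p under 0.05 on the positive side and 7.83% on the negative side. Of 23 early nephron genes, 4 had an unadjusted p under 0.05 on the positive side and 1 on the negative side, and 0 passed over all genes, with a median of 0.21. Besides Wnt4, Heyl, a target of Notch signalling, had 1.94, 1.31 and 1.92 (limma adjusted p = 0.107). Other genes of that pathway went both ways: Hey1 had 1.75, 1.60 and 1.00 and Hes5 had -0.32, -0.42 and -0.20. The early nephron gene counted on the negative side was Fgf8, with -0.33, -0.72 and -0.68 (limma adjusted p = 0.219). Hey1, Hes5 and Fgf8 were named after their values were seen. Of 12 loop and distal tubule genes, 3 positive genes and 1 negative gene were past the same unadjusted threshold, with 0 over all genes and a median of 0.10. The largest mean was on the negative side, that of Ptger3, a prostaglandin E receptor, with -2.15, -0.89 and -2.25 (mean -1.77 ± 0.76, limma adjusted p = 0.134). On the positive side Sim2, a basic helix-loop-helix factor, had 2.27, 0.72 and 2.24, where array 2 was the lowest (mean 1.74 ± 0.89, limma adjusted p = 0.158). Calb1, the calcium-binding protein calbindin of the ureteric bud and distal tubule, had 1.16, 1.05 and 1.00 (mean 1.07 ± 0.083, limma adjusted p = 0.109). The 16 duct genes had 5 past the unadjusted threshold on the positive side and 0 on the negative side, and a median of 0.18; Calb1 is in both the distal and the duct list and is counted in each. The sign order of Lhx1 was held by 4 of the 23 early nephron genes, 1 of the 12 distal genes and 1 of the 16 duct genes. Of all genes, 7.26% held it.

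Markers of other tissues that use these factors were read in the same way, with the same shares of all genes beside them (8.99% positive and 7.83% negative). A negative mean was held by 9768 of 19635 genes. Of 17 neural genes 10 had a negative mean, the unadjusted p was under 0.05 for 2 positive and 3 negative genes, with 0 past the adjusted threshold and a median of -0.29. The neural list had means of -0.20, -0.43 and 0.060 on arrays 1, 2 and 3, and the mean of the 7 factors was 0.17, -0.42 and 0.11. The low mean of the 7 on array 2 rested on Pou3f3 (-2.23) and Lhx1 (-1.07), and 3 of the 7 were positive there. Within the neural list the lowest value on array 2 was that of Sox3, a factor of neural progenitors picked out after its values were seen. It had 0.87, -3.43 and 0.040, and without it the means of the other 16 genes were -0.27, -0.25 and 0.061. Because Sox3 was chosen as the lowest on array 2, leaving it out had to raise that mean. Elavl3, also picked out after its values were seen, stood at -2.02 on array 2. Of 12 lists other than the 7 factors, 5 had their lowest mean on array 2. Among those, the neural (-0.43) and endothelial (-0.10) means were negative on array 2. The early nephron (0.20), proximal (0.13) and mesenchyme (0.35) means were positive there. The sign order of Lhx1 was held by 4 of the 17 neural genes, beside 7.26% of all genes. The part of neural tissue in the values of Lhx1 and Pou3f3 was not tested. Of 20 gut and liver genes 15 had a negative mean, 1 positive gene and 6 negative genes had an unadjusted p under 0.05, with 0 over all genes and a median of -0.24. The means of that list were -0.51, -0.33 and -0.39 on arrays 1, 2 and 3. In that list 0 of 20 genes had the sign order of Lhx1, beside 7.26% of all genes. Its markers went both ways: Afp, the alpha-fetoprotein of liver and yolk sac, had -1.47, -1.30 and -1.56, and albumin, Alb, which was named after its values were seen, had 1.20, 0.22 and 1.21 (mean 0.87 ± 0.57, limma adjusted p = 0.233). The part of these tissues in the value of Hnf4a was not tested.

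The genes whose 3 ratios lay nearest to each factor were found by Euclidean distance over the arrays among 14746 named genes. For Lhx1 they were Fahd1, at a distance of 0.23, and Rnf170, at 0.26. Those nearest to Pou3f3 were Vps45, at 0.15, and Fign, at 0.17, with -2.22 and -2.31 on array 2. Nearest to Pax8 were Kctd18 and Dnajc10, to Hnf4a Ccl20 and Rap2a, to Irx1 Ralb and Kcnq1, to Irx3 Hira and Ripk4, and to Emx1 Alyref2 and Senp7. In each case a gene outside the 7 lay nearer than any other factor. With 14746 named genes searched and only 7 factors among them, that outcome was close to certain beforehand. It therefore says nothing about how alike the factors are. The closest pair among the 7, Irx1 and Irx3, was 0.51 apart, and Lhx1 and Pou3f3 were 1.31 apart.

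**Figure D4:**
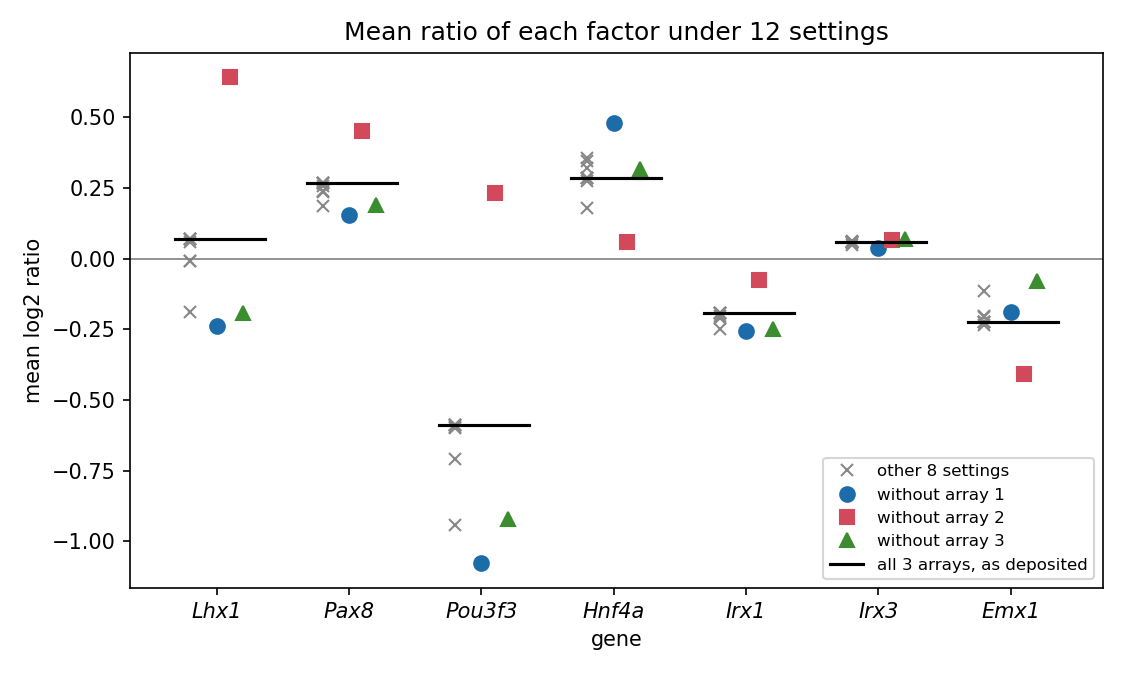
Mean log2 ratio of each factor (vertical axis) with all 3 arrays as deposited (black line), without each array in turn (coloured points) and under the other 8 settings (crosses). The points without array 2 stand farthest from the line for every factor except Irx3, and cross 0 for Pou3f3.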

How the data were processed

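The authors deposited 1 log2 ratio of the channels per oligo and array, after image analysis in ImaGene 5.5, per the labels. They name print-tip loess, a normalization between arrays in R and a lowess curve on 20% of the data at each point, with control values under 10 set to 10. A shift common to most genes would thus not be seen. The labels mention a dye swap without naming the array, and the dyes and the numerator are not given in the sources used here; no sign was turned. Base 2 was inferred, since 99.8% of the values are logarithms of ratios with 3 decimals (to within 0.01 of the last decimal). Spot intensities, background and oligo sequences were not used here, and no genome build is named.

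Of 22702 spots, 883 outside the oligo library were left out. Of 21819 library oligos, 16656 had 1 gene symbol, 137 several and 5026 none listed; those with several or none kept their own identifiers. A RefSeq gene table of GRCm38.p6, used for names only, held 15970 of the named ones and changed 0 symbols. Oligos with a value on all 3 arrays (21094) were averaged by symbol, and 19635 genes were tested. Means were set against 0 by lmFit and eBayes (limma 3.58.1, R 4.3.3; an intercept only), two-sided, adjusted by Benjamini-Hochberg over all genes at 0.05, with 95% intervals from the moderated SE (median SE 0.19). The script was tested on simulated data. The members and lists were chosen with earlier results of these data known. Named genes were the 7 factors, their family relatives, their 2 nearest genes, and of each other list at most 3 of the largest means with 1 sign on all arrays. Genes outside that rule are marked as named or picked out after their values were seen. Alternatives were leaving out each array, median centring, scale and quantile normalization, single oligos, genes on 2 arrays, array weights, a robust variance prior, and leaving out the lowest ratio.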

Additional observations from a re-analysis of the deposited data

How the results depend on the processing

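No factor passed limma's test over all genes under any of the 11 alternatives; the lowest adjusted p ranged from 0.400 (Irx1) to 0.804 (Irx3), and the lowest unadjusted p was 0.0571, for Lhx1 without array 2. Of 77 values of the 7 factors, 71 kept their sign. The mean of Lhx1 was -0.0093 after scale normalization, -0.0087 after quantile normalization and -0.19 with array weights, and ranged from -0.24 to 0.64 with 1 array left out. The mean of Pou3f3 ranged from -1.08 to 0.23 with 1 array left out. With 1 array left out, between 2 and 6 factors had the same sign on both remaining arrays, the 6 without array 2. The mean of Lhx5 ranged from -0.30 to 0.30 and that of Pou3f1 from -0.20 to 0.087. The count of genes past limma's adjusted p was 0 without each array in turn, after scale normalization and without ratios at the floor, where from 1686 to 3929, 3359 and 3307 genes had an unadjusted p under 0.05. Leaving out the floor removes Slc2a1 itself; the cause of the other changes was not tested.

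Small list counts changed with the setting in 61 of 264 recounts, in 34 of them by more than 1.5 times or to or from 0. For the partners of Lhx1 they ran from 0 to 2 on the positive and 0 to 1 on the negative side, against 1 and 1; for the family relatives 0 to 2 and 2 to 5, against 1 and 3; for proximal genes 0 to 3 and 1 to 2, against 2 and 1; for early nephron genes 3 to 5 and 0 to 2, against 4 and 1; for distal genes 2 to 3 and 1 to 2, against 3 and 1; for duct genes 3 to 5 and 0 to 1, against 5 and 0; for neural genes 0 to 2 and 2 to 5, against 2 and 3; and for gut and liver genes 0 to 1 and 5 to 6, against 1 and 6. For mesenchyme markers the counts ran from 4 to 5 and 0 to 3, against 5 and 1. For red-cell markers they were 0 and 4 to 5, against 0 and 5, and for muscle markers 0 and 4 to 8, against 0 and 7. Endothelial markers had 0 to 1 on each side, against 0 and 1. These recounts, and those of genes outside the 7, were chosen after seeing the data. Each ratio sets both tissues of 1 array against each other, so the test against 0 is already paired within arrays. No further pairing was available because the arrays form 1 group. Signal over background was not examined, so dim spots could not be set apart.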

Other observations

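Array 2 also stood apart for Pax1, a paired-box gene of the sclerotome and of the pharyngeal pouches, in the opposite sense to Pou3f3. Pax1 had -2.94, 0.17 and -2.55 on arrays 1, 2 and 3, a mean of -1.77 ± 1.70 (SD, n = 3 arrays; limma adjusted p = 0.304). Pax4, a paired-box gene of the endocrine pancreas, was negative on all 3 arrays at -1.30, -0.31 and -0.99 (limma adjusted p = 0.215), with array 2 nearest 0. Both were picked out after their values were seen.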
